A study of Mus musculus with 6 samples.

Results

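The genes described here encode 10 proteins of the matrix that lies directly against the cell: the collagen VI chains *Col6a1*, *Col6a2* and *Col6a3*, the collagen IV chains *Col4a1* and *Col4a2*, the laminin chains *Lama4*, *Lamb1* and *Lamc1*, the nidogen *Nid2* and the perlecan core protein *Hspg2*. They were chosen by name and matched through their Ensembl identifiers to 10 of the 22032 rows of the expression matrix. All 10 were tested. The study sorted chondrocytes of the mouse knee by the receptor BMPR1B and measured their RNA by sequencing in 3 embryonic and 3 adult samples, as part of a comparison of mouse with human chondrocytes. Cells of both stages were sorted as negative for lineage markers and alkaline phosphatase (ALP) and positive for BMPR1B. The embryonic cells came from E16.5 embryos. The labels give this stage as 16.5 weeks, and the embryonic day of the methods is used here. The adult cells came from male B6 mice of 2 months, for which the methods spell out the lineage gate as CD31-, CD45- and Ter119-, against blood vessel and blood cells. The labels name no genetic change and no treatment in either group. The series calls the samples biological replicates, but how many animals went into a sample and the sex of the embryos are not given in the sources used here, so p-values measure the spread between these samples.

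Chondrocytes are wrapped in a thin pericellular matrix that separates them from the bulk collagen and proteoglycan of cartilage. Collagen VI, assembled from an alpha 1, an alpha 2 and an alpha 3 or alpha 3-like chain, forms beaded filaments that characterise this zone, and perlecan, a large heparan sulfate proteoglycan, binds growth factors in it. Cartilage has no continuous basement membrane, but chondrocytes deposit basement membrane proteins around themselves. In a basement membrane, laminins, each an alpha, a beta and a gamma chain, polymerise on cell surface receptors, collagen IV forms a second network, and nidogens and perlecan link the networks.

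The deposited values are log2(TPM + 1), where TPM is the share of transcripts scaled to a fixed total, an estimate already divided by transcript length. They were taken back to TPM for levels. Differences below are adult minus embryonic on the log2(TPM + 1) scale, with the standard error (SE) and the Benjamini-Hochberg adjusted p of limma, called at an adjusted p under 0.05 among the 13125 genes whose mean over all samples reached 1 TPM. Every sample adds up to 1000000 TPM, so sequencing depth is not carried by the values, and their precision rests on 3 samples per stage. Genes listed at 0 numbered 7314 to 7656 per embryonic and 7570 to 8294 per adult sample. The 20 highest genes took 10.7% to 11.1% of the TPM in embryonic and 14.6% to 17.7% in adult samples. The defining cartilage genes *Col2a1* and *Acan* were high at both stages. *Col2a1*, the main cartilage collagen, stood at 14663, 14154 and 15251 TPM in embryonic and 7084, 3166 and 3869 TPM in adult samples, and *Acan*, the core protein of aggrecan, at 1306, 1018 and 1247 against 1265, 2672 and 1756 TPM. *Col2a1* was lower in the adult (difference -1.73, limma adjusted p = 0.00107) and *Acan* did not pass the test. Of the 15 chondrocyte markers described below, 9 were lower (60.0%, beside 21.4% of all tested genes) and 4 higher (26.7%, beside 23.9%). Among the lower, *Col9a1*, named after its values were seen, was at 1913 to 1946 against 27.2 to 64.3 TPM.

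The matrix genes did not move as a block. Laminin, collagen IV and nidogen transcripts fell between the embryonic and the adult stage, with *Lamb1* lower by 29.2-fold, whereas the *Col6a1*, *Col6a2* and *Hspg2* transcripts did not pass the test and *Col6a3* rose 1.55-fold. Of the 10 genes 7 were called, where 45.3% of all tested genes were called. Lower in the adult were 6 (21.4% of all tested genes) and higher was 1 (23.9% of all tested genes). The same 7 genes had stage ranges that did not overlap, a property of 56.5% of all tested genes, with the adult samples below in 25.9% and above in 30.7%. The median difference was -1.22 over the 10 genes and 0.16 over all tested genes. In bulk samples like these, fewer cells that express a gene and less RNA of it per cell cannot be told apart.

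**Figure D1:**
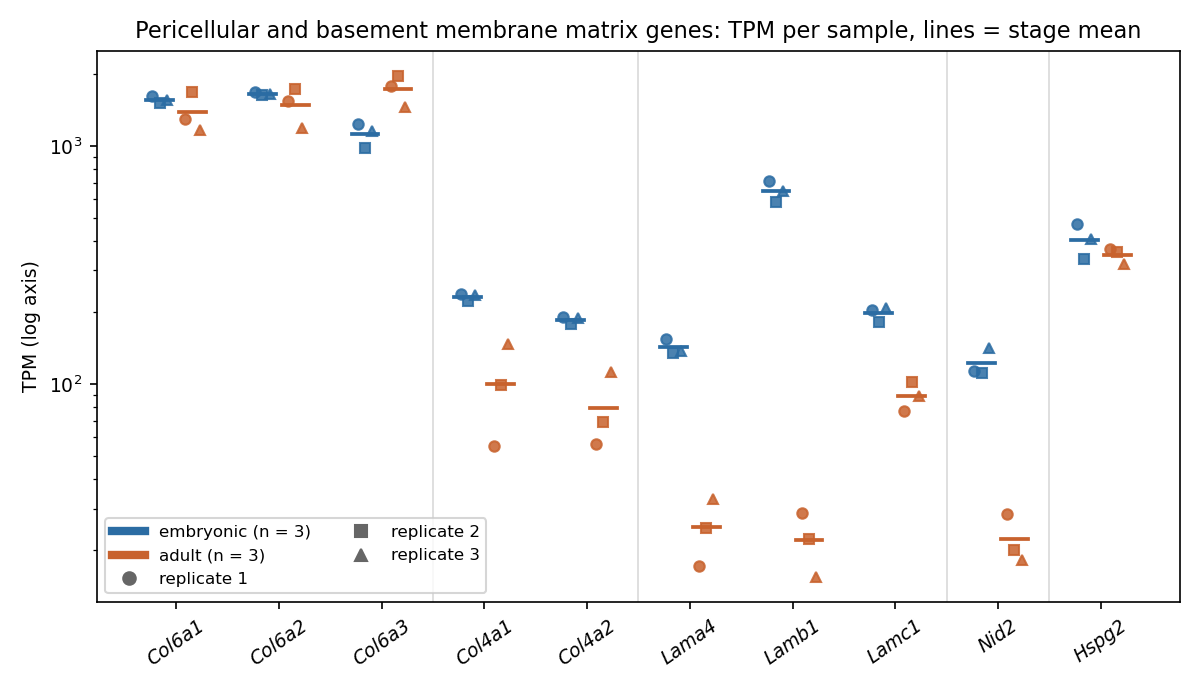
Level of each of the 10 genes in TPM (log axis) in the 3 embryonic and 3 adult samples, with 1 symbol per sample (shaped by replicate number) and short lines at the stage means. The adult points of *Lamb1* (15.5 to 28.9 TPM) lie below all embryonic points (583 to 716 TPM), those of *Col6a3* lie above, and those of *Col6a1*, *Col6a2* and *Hspg2* overlap.

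Collagen VI was the most abundant of these components at both stages. *Col6a1*, the alpha 1 chain (GRCm38 chr10:76708792-76726168, minus strand), was measured at 1622, 1508 and 1559 TPM in embryonic and 1297, 1689 and 1166 TPM in adult samples. *Col6a2*, the alpha 2 chain (chr10:76595762-76623630, minus strand), was measured at 1682, 1632 and 1656 against 1543, 1732 and 1193 TPM. For both genes 2 adult samples lay below every embryonic sample and adult sample 2 lay above them all. The difference of *Col6a1* was -0.19 (SE 0.152, 95% interval -0.54 to 0.15, limma adjusted p = 0.328), and turned to 0.13 with quantile normalization. Without adult sample 2 the difference was -0.34 with a limma adjusted p of 0.0437. The difference of *Col6a2* was -0.17 (SE 0.151, 95% interval -0.51 to 0.17, limma adjusted p = 0.383), and turned to 0.16 with quantile normalization. The genes are neighbours on chromosome 10, 85161 bases apart on the same strand. Within a sample the *Col6a2* to *Col6a1* ratio stayed close to equal, at 1.06 ± 0.022 (SD, n = 3) in embryonic and 1.08 ± 0.095 in adult samples.

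*Col6a3*, the longest of these chains (chr1:90765923-90843971, minus strand), went the other way. It was measured at 1230, 980.4 and 1156 TPM in embryonic and 1794, 1971 and 1455 TPM in adult samples. All adult samples were above all embryonic ones. The log2 level rose from 10.13 ± 0.17 to 10.75 ± 0.22 (SD, n = 3 each), a difference of 0.63 (SE 0.152, 95% interval 0.28 to 0.97, limma adjusted p = 0.00958), and over the alternative settings the adjusted p lay between 0.0021 and 0.0488. Taken against the median of all tested genes, the difference of *Col6a3* was 0.46 to 0.81 over the scalings tried, whose medians lay between 0.02 and 0.25. The *Col6a3* to *Col6a1* ratio, which does not move with the scaling of a sample, was 0.759, 0.650 and 0.742 in embryonic and 1.38, 1.17 and 1.25 in adult samples. The stages did not overlap, and the exact two-sided permutation test gave p = 0.1, the smallest possible with 3 against 3 (0.225 after adjustment over 9 ratios). *Col6a3* made up 25.3% ± 1.71 of the summed collagen VI TPM in embryonic and 37.8% ± 1.14 in adult samples, while that sum was 4420 ± 214 and 4616 ± 790 TPM.

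Of the chains that can take the place of alpha 3 in collagen VI, *Col6a6* fell. It was measured at 71.3, 65.9 and 89.0 TPM in embryonic samples and listed at 0, 0.0723 and 3.12 TPM in adult samples, a difference of -5.53 (limma adjusted p = 8.33e-05). *Col6a5* was low and scattered, at 2.70, 1.14 and 3.16 against 0, 5.40 and 0 TPM, and did not pass the test (difference -0.79, limma adjusted p = 0.427). *Col6a4* was under the mean of 1 TPM and was not tested. Among the alpha 3-like chains *Col6a3* held 93.5% ± 0.859 of the TPM in embryonic and 99.8% ± 0.145 in adult samples.

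The 250 bases before the start of *Col6a3*, the collagen VI gene that rose, are shown with the stretches before 2 other genes. These are *Lamb1*, with the widest fall of the 10, and *Hspg2*, which like *Col6a1* and *Col6a2* did not pass the test. The sequences are those of RefSeq on GRCm38.p6, 5′ to 3′ on the strand of the gene, and capitals mark the GC box GGGCGG or its reverse complement CCGCCC. The stretch of *Col6a3* lies at chr1:90843972-90844221 (minus strand), that of *Lamb1* at chr12:31265043-31265233 (plus strand) and that of *Hspg2* at chr4:137468553-137468768 (plus strand), all upstream of the first annotated exon.
Col6a3: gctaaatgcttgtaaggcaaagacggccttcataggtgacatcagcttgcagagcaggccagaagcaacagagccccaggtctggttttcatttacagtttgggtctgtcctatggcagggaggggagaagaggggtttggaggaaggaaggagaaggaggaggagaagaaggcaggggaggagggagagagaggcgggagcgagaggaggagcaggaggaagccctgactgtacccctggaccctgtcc
Lamb1: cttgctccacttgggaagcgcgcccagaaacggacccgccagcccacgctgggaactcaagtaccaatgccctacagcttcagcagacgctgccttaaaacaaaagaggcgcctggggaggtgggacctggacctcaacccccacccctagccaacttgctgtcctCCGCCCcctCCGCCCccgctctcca
Hspg2: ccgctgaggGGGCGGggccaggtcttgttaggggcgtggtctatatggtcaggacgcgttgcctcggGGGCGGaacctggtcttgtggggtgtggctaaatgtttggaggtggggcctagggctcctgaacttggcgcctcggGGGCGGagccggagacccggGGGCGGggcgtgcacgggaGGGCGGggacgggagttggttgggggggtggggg
The *Col6a3* stretch of 250 bases holds no GC box and 3 CpG, the *Lamb1* stretch of 191 bases holds 2 GC boxes and 10 CpG, and the *Hspg2* stretch of 216 bases holds 5 GC boxes and 17 CpG. Of 32851 promoter windows of 300 bases in the RefSeq table, 35.7% hold a GC box, 37.4% hold CCAAT and 13.6% hold TATAAA, each on either strand. Windows were matched for 7 of the 10 genes. *Lama4*, *Lamc1* and *Nid2* had no entry. Of the 8 windows matched, none holds TATAAA, and *Col4a1*, *Col4a2* and *Lamb1* hold CCAAT. The windows of *Col6a1*, which did not pass the test, and of *Col6a3*, which rose, each hold no GC box and 3 CpG. Their GC content ran from 56.3% in *Col6a3* to 74.0% in *Col4a1*, where the median over all windows was 52.7%. A match of letters is a description and not a binding site.

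Collagen IV fell in both of its ubiquitous chains. *Col4a1* (chr8:11198423-11312826, minus strand) was measured at 239, 223 and 236 TPM in embryonic and 54.9, 98.7 and 147 TPM in adult samples. *Col4a2* (chr8:11312805-11449287, plus strand) was measured at 191, 178 and 189 against 56.0, 69.2 and 112 TPM. Every adult sample was below every embryonic sample, and the adult samples were spread far wider than the embryonic ones, with adult sample 1 lowest and adult sample 3 highest for both genes. The difference was -1.32 for *Col4a1* (SE 0.299, 95% interval -1.99 to -0.64, limma adjusted p = 0.00714) and -1.28 for *Col4a2* (SE 0.231, 95% interval -1.81 to -0.76, limma adjusted p = 0.0023). These are 2.32-fold and 2.35-fold lower mean TPM.

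*Col4a1* and *Col4a2* lie head to head on chromosome 8 and are transcribed away from each other. In the annotation their 5′ ends overlap by 22 bases, chr8:11312805-11312826, printed here on the plus strand because both genes start in it, with the GC box in capitals.
Col4a1 and Col4a2: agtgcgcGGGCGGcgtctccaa
Within the embryonic samples the *Col4a2* to *Col4a1* ratio was 0.801, 0.799 and 0.802. In the adult samples it was 1.02, 0.702 and 0.763, on both sides of the embryonic value, and the difference of the mean log2 ratios was 0.03 (exact two-sided permutation test, p = 1). The other collagen IV chains were less abundant. *Col4a5* fell from 83.9, 76.9 and 75.0 TPM to 3.75, 3.20 and 9.75 TPM, 14.1-fold lower (difference -3.73, limma adjusted p = 7.78e-05), and its part of the collagen IV sum went from 15.7% ± 0.70 to 2.89% ± 0.927. *Col4a6* was measured at 3.53, 3.60 and 2.13 TPM in embryonic samples and was listed at 0 in all adult samples. *Col4a3* and *Col4a4*, which assemble with *Col4a5* in specialised basement membranes, were under the mean of 1 TPM and were not tested. The summed collagen IV was 501 ± 17.5 TPM in embryonic and 187 ± 78.0 TPM in adult samples.

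**Figure D2:**
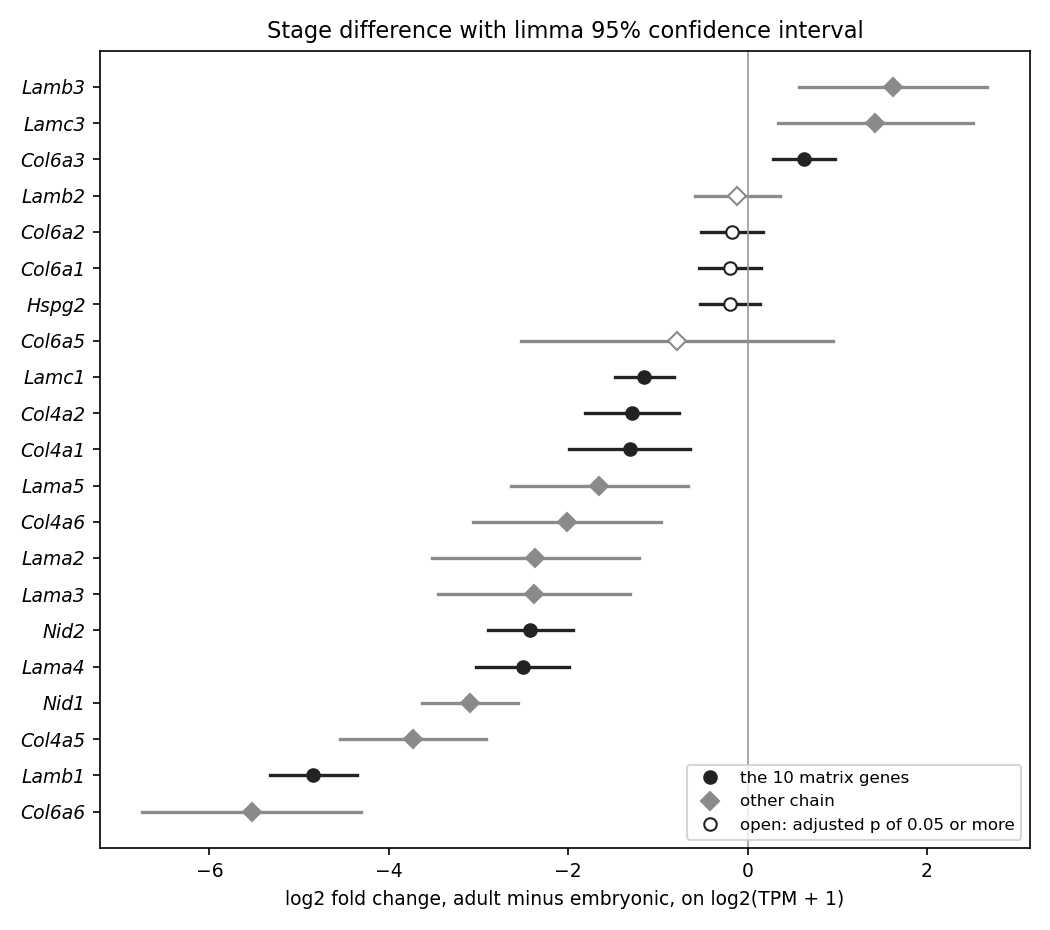
Difference of adult minus embryonic on the log2(TPM + 1) scale with its 95% limma interval, for the 10 genes (circles) and the other chains named in the text (diamonds), open where the call failed. The interval of *Lamb1* runs from -5.33 to -4.36, that of *Col6a3* from 0.28 to 0.97, and those of *Col6a1*, *Col6a2* and *Hspg2* include 0.

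The laminin chains fell by very different amounts. *Lamb1*, the beta 1 chain that pairs with gamma 1 in most embryonic laminins (chr12:31265234-31329644, plus strand), was measured at 716, 583 and 645 TPM in embryonic and 28.9, 22.2 and 15.5 TPM in adult samples. The lowest embryonic sample was far above the highest adult sample. The log2 level went from 9.34 ± 0.15 to 4.49 ± 0.43, a difference of -4.84 (SE 0.213, 95% interval -5.33 to -4.36, limma adjusted p = 1.13e-06). By mean level *Lamb1* ranked 216 of 22032 genes in embryonic and 6556 in adult samples. Leaving out any sample gave differences between -5.04 and -4.62.

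*Lama4*, the alpha 4 chain found in vessel and mesenchymal basement membranes (chr10:38965515-39110188, plus strand), was measured at 155, 135 and 137 TPM in embryonic and 17.2, 24.9 and 32.9 TPM in adult samples. It was 5.71-fold lower in the adult (difference -2.51, SE 0.23, 95% interval -3.03 to -1.99, limma adjusted p = 6.16e-05). *Lamc1*, the gamma 1 chain shared by most laminins (chr1:153218922-153332786, minus strand), was measured at 204, 183 and 209 against 76.8, 102 and 88.9 TPM. It was 2.22-fold lower (difference -1.15, SE 0.146, 95% interval -1.48 to -0.82, limma adjusted p = 0.000358). For both chains all adult samples lay below all embryonic samples.

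The beta chains changed places. *Lamb2*, the beta 2 chain typical of mature synaptic and kidney basement membranes, was measured at 133, 139 and 146 TPM in embryonic and 90.3, 153 and 153 TPM in adult samples. The groups overlap, and the difference was -0.11 (SE 0.208, 95% interval -0.58 to 0.36, limma adjusted p = 0.68). *Lamb1* made up 84.2%, 80.6% and 81.2% of the summed beta chain TPM in embryonic samples and 23.3%, 12.1% and 8.54% in adult samples. *Lamb2* made up 17.7% ± 1.87 and 80.0% ± 6.34. The *Lamb2* to *Lamb1* ratio was 0.185, 0.238 and 0.226 in embryonic and 3.13, 6.89 and 9.87 in adult samples, which do not overlap (exact two-sided permutation test, p = 0.1, the smallest possible, 0.225 after adjustment over 9 ratios). The summed beta chains fell 4.83-fold, from 789 ± 63.4 to 163 ± 34.1 TPM.

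*Lamb1* also moved against its gamma partner. The *Lamb1* to *Lamc1* ratio was 3.51, 3.19 and 3.09 in embryonic and 0.376, 0.218 and 0.174 in adult samples, with a difference of log2 ratios of -3.69 (exact two-sided permutation test, p = 0.1, 0.225 after adjustment). Among alpha chains *Lama4* held 59.9% ± 3.54 of the TPM in embryonic and 49.3% ± 10.8 in adult samples, and *Lama5* held 31.4% ± 5.66 and 46.2% ± 9.34. The *Lama5* to *Lama4* ratio overlapped between stages (difference of log2 ratios 0.86, exact two-sided permutation p = 0.2), and so did that of *Lama2* to *Lama4* (difference 0.14, p = 0.8). The summed alpha chains were 4.46-fold lower, at 239 ± 33.5 and 53.7 ± 23.0 TPM.

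**Figure D3:**
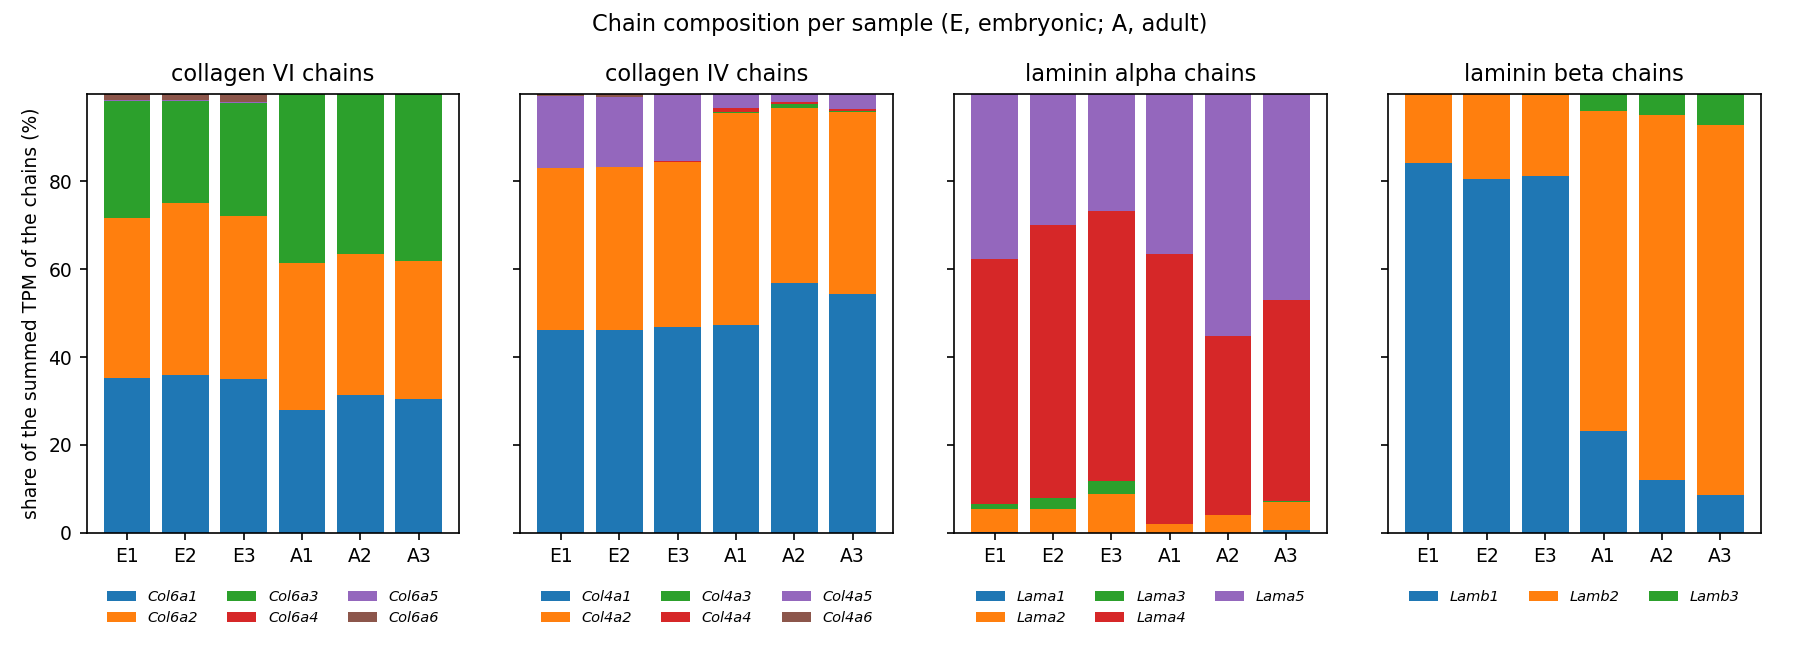
Share of each chain in the summed TPM of its complex in percent, as stacked bars by sample (E embryonic, A adult), for collagen VI, collagen IV and the laminin alpha and beta chains. *Lamb1* takes 80.6% to 84.2% of the beta sum in embryonic and 8.54% to 23.3% in adult samples, where *Lamb2* takes the larger part.

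The nidogens fell together. *Nid2*, one of the proteins that bridge laminin and collagen IV (chr14:19751265-19811787, plus strand), was measured at 114, 111 and 142 TPM in embryonic and 28.5, 20.001 and 18.3 TPM in adult samples. All adult samples were below all embryonic samples. *Nid2* was 5.50-fold lower (difference -2.42, SE 0.208, 95% interval -2.90 to -1.95, limma adjusted p = 4.38e-05). Its exons overlap those of *Rtraf* on the opposite strand over 437 of 5174 bases, and the library kit does not mark the strand, so reads from the shared bases cannot be assigned by strand. *Rtraf* averaged 87.2 TPM over all samples, where *Nid2* averaged 122 TPM in embryonic and 22.3 TPM in adult samples. The effect of the overlap on the *Nid2* values was not tested. *Nid1*, the other nidogen, was measured at 183, 170 and 220 against 18.3, 16.9 and 31.1 TPM, 8.64-fold lower (difference -3.10, SE 0.237, limma adjusted p = 2.35e-05). The *Nid1* to *Nid2* ratio was 1.61, 1.53 and 1.55 in embryonic samples and 0.644, 0.847 and 1.70 in adult samples, a range that takes in the embryonic values (exact two-sided permutation test, p = 0.4). The nidogen sum was 7.07-fold lower in the adult.

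Perlecan did not pass the test. *Hspg2* (chr4:137468769-137570630, plus strand) was measured at 470, 334 and 406 TPM in embryonic and 367, 359.8 and 320.4 TPM in adult samples. The groups overlap, with the adult samples tighter than the embryonic ones. The difference was -0.20 (SE 0.147, 95% interval -0.53 to 0.14, limma adjusted p = 0.303). Of the other heparan sulfate proteoglycans of basement membranes, *Agrn*, agrin, was lower by 1.90 on the log2 scale (limma adjusted p = 0.00025) and *Col18a1* by 2.20. The *Hspg2* to *Agrn* ratio was 6.82, 5.70 and 5.41 in embryonic and 16.2, 22.6 and 22.4 in adult samples (difference of log2 ratios 1.70, exact two-sided permutation test, p = 0.1, 0.225 after adjustment). *Hspg2* made up 67.9% ± 1.88 and 88.8% ± 1.75 of the summed TPM of *Hspg2*, *Agrn* and *Col18a1*.

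**Figure D4:**
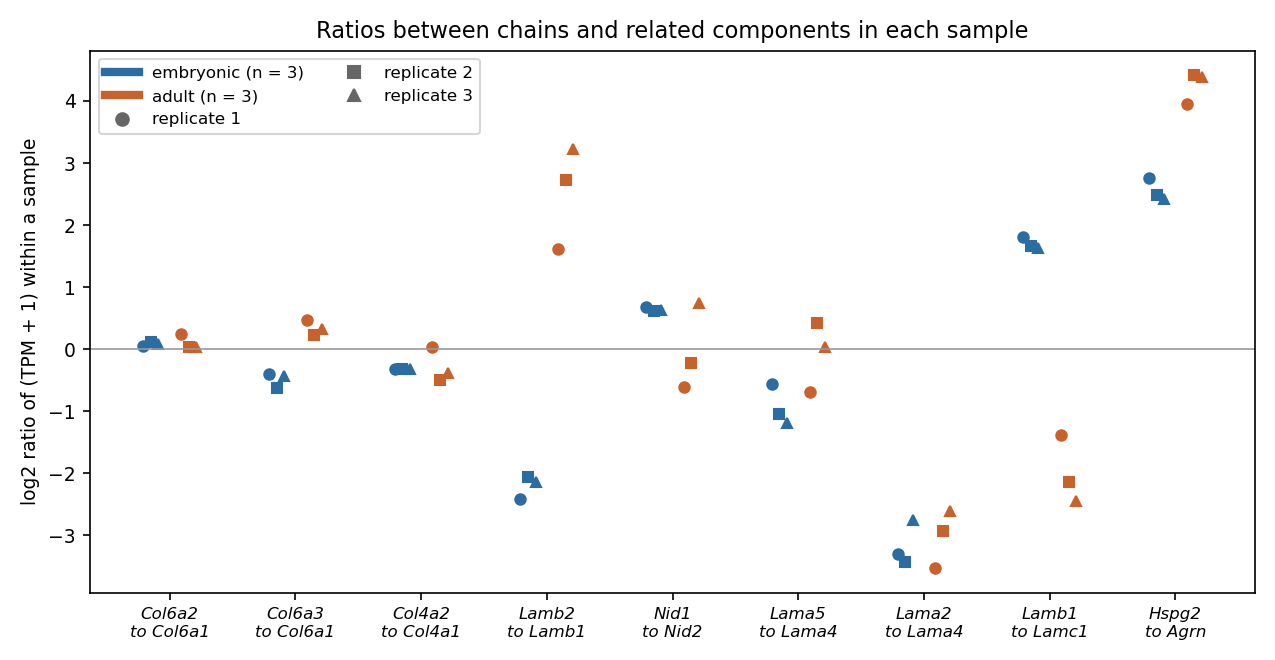
Log2 ratio of the TPM + 1 of 2 genes within each sample, for the 9 ratios computed. The stages do not overlap for 4 of the 9 (*Col6a3* to *Col6a1*, *Lamb2* to *Lamb1*, *Lamb1* to *Lamc1* and *Hspg2* to *Agrn*), and the *Col4a2* to *Col4a1* points of the embryonic samples fall almost on each other. For each of the 4 the exact two-sided permutation test gave p = 0.1, 0.225 after adjustment over the 9 ratios. The share of other gene pairs without overlap was not computed.

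In order of level, the embryonic genes ran *Col6a2*, *Col6a1*, *Col6a3*, *Lamb1*, *Hspg2*, *Col4a1*, *Lamc1*, *Col4a2*, *Lama4* and *Nid2*. In that order only the neighbours *Lamc1* and *Col4a2*, and *Lama4* and *Nid2*, had overlapping ranges. In the adult the order ran *Col6a3*, *Col6a2*, *Col6a1*, *Hspg2*, *Col4a1*, *Lamc1*, *Col4a2*, *Lama4*, *Nid2* and *Lamb1*. There the ranges fell into 4 tiers that were clear of each other, namely collagen VI, *Hspg2*, then *Col4a1* with *Lamc1* and *Col4a2*, and last *Lama4* with *Nid2* and *Lamb1*. Within a tier, neighbours overlapped. By mean level *Col6a3* ranked 118 of all genes in embryonic and 43 in adult samples, *Hspg2* 382 and 402, and *Col4a1* 733 and 1903. The 10 genes together took 0.587% to 0.662% of all TPM in embryonic and 0.455% to 0.609% in adult samples.

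The adult samples differed more among themselves than the embryonic ones. The SD of the log2 level had a median of 0.10 over the 10 genes in embryonic samples (0.02 to 0.25) and 0.30 in adult samples (0.11 to 0.71). Over all tested genes the median SD was 0.26 and 0.35. The 10 genes did not follow a single order over the adult samples. *Col4a1*, *Col4a2* and *Lama4* were lowest in adult sample 1 and highest in adult sample 3, *Lamb1* and *Nid2* the reverse, and the collagen VI chains were highest in sample 2 and lowest in sample 3.

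The remaining chains of the same protein families mostly went down too. Of 16 chains, 12 were tested, 8 fell, 2 rose and 2 did not pass the test, where 21.4% of all tested genes fell and 23.9% rose. The rises, 16.7% of those tested, were below that share. The median difference was -1.83. *Lama5*, the alpha 5 chain of many adult basement membranes, went from 105, 65.0 and 59.5 to 10.2, 33.7 and 33.9 TPM (difference -1.65, SE 0.435, limma adjusted p = 0.0141). Its call was lost without embryonic sample 1, at a limma adjusted p of 0.064. *Lama2*, the muscle laminin chain, went from 14.7, 11.7 and 19.5 to 0.572, 2.39 and 4.58 TPM (difference -2.37, limma adjusted p = 0.00547). *Lama3*, a chain of epithelial laminin, had a difference of -2.38 (limma adjusted p = 0.00368). The chains that rose were both rare. *Lamb3* went from 1.59, 1.59 and 3.27 to 4.98, 9.02 and 13.05 TPM (difference 1.63, limma adjusted p = 0.0197) and *Lamc3* from 0.137, 0 and 0.284 to 2.17, 1.30 and 2.87 TPM (difference 1.42, limma adjusted p = 0.0384). Neither call held in every setting, since *Lamb3* lost it without embryonic sample 1 or 2 or adult sample 2 or 3 (limma adjusted p 0.056 to 0.066) and *Lamc3* without any single embryonic sample (0.070 to 0.095). Without adult sample 1 or 3, *Lamc3* was under the mean of 1 TPM and was not tested.

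Of 26 other proteins of the pericellular and basement membrane matrix, 25 were tested, 8 rose, 11 fell and 6 did not pass the test, with a median difference of -0.88. These are 32.0% higher and 44.0% lower, beside 23.9% and 21.4% of all tested genes. Among the rises were netrin 4 and small matrix proteins. *Ntn4*, a netrin that binds laminin gamma chains, went from 9.16, 16.8 and 9.18 to 300.2, 294 and 355 TPM, 27.0-fold higher (difference 4.69, limma adjusted p = 2.25e-06). *Dcn*, the proteoglycan decorin, went from 217, 241 and 326 to 6348, 5026 and 5549 TPM, 21.6-fold higher (difference 4.44, limma adjusted p = 5.8e-07). *Ecm1* rose by 2.94 on the log2 scale, and *Fn1*, fibronectin, was 5.66-fold higher. The falls were widest for *Matn3*, a matrilin of growing cartilage, at 188, 181 and 234 against 1.85, 3.65 and 1.11 TPM (difference -6.05). *Fbln1*, fibulin 1, fell by 4.59 on the log2 scale. *Fras1*, part of the embryonic epithelial basement membrane, was at 23.7, 14.8 and 22.1 TPM in embryonic samples and was listed at 0 in all adult samples. *Pxdn*, peroxidasin, which crosslinks collagen IV, went from 129, 109 and 122 to 6.10, 4.59 and 6.13 TPM, 21.4-fold lower (difference -4.20, limma adjusted p = 2.14e-06).

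Of 24 receptors and cell surface proteoglycans that bind these matrix proteins, all were tested, 6 rose, 11 fell and 7 did not pass the test, with a median difference of -0.42. The rises were 25.0% of those tested, near the 23.9% of all tested genes, and the falls 45.8%, beside 21.4%. *Antxr1* and *Antxr2* encode receptors that bind collagen VI. *Antxr1* fell from 213, 187 and 196 to 48.7, 39.4 and 83.1 TPM (difference -1.85, limma adjusted p = 0.000466), and *Antxr2* rose from 41.7, 36.1 and 46.2 to 92.3, 84.1 and 113 TPM (difference 1.20, limma adjusted p = 0.000786). The collagen receptors *Ddr2* and *Itga10*, the integrin alpha 10 chain of chondrocytes, rose by 1.46 and 1.15 on the log2 scale (limma adjusted p = 4.21e-05 and 0.00344). Of other collagen receptors, named after their values were seen, *Itga11* fell by 1.54 and *Ddr1* by 0.61 (limma adjusted p = 0.0033 and 0.0289). *Itga1* and *Itga2* did not pass the test, and *Ddr1* lost its call in some settings (limma adjusted p up to 0.0963). *Itga6*, the integrin alpha 6 chain that binds laminin, was named after its values were seen and fell from 197, 183 and 171 to 48.8, 62.8 and 70.4 TPM (difference -1.60, limma adjusted p = 0.000117). Other laminin receptors, also named after their values were seen, did not all follow. *Dag1* and *Itga3* rose by 0.60 and 0.64 (limma adjusted p = 0.013 and 0.0326), and *Itga7*, *Itgb4* and *Bcam* did not pass the test. The call of *Itga3* was lost in some settings (limma adjusted p up to 0.108). Of the heparan sulfate carriers, *Sdc4* rose by 1.19 (limma adjusted p = 0.000593) and *Sdc1* fell by 2.12. *Gpc6* fell by 1.79 (limma adjusted p = 0.000121). *Gpc3*, glypican 3, fell from 878, 774 and 902 to 2.81, 1.13 and 3.81 TPM, 330-fold lower (difference -7.97, limma adjusted p = 3.85e-07).

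**Figure D5:**
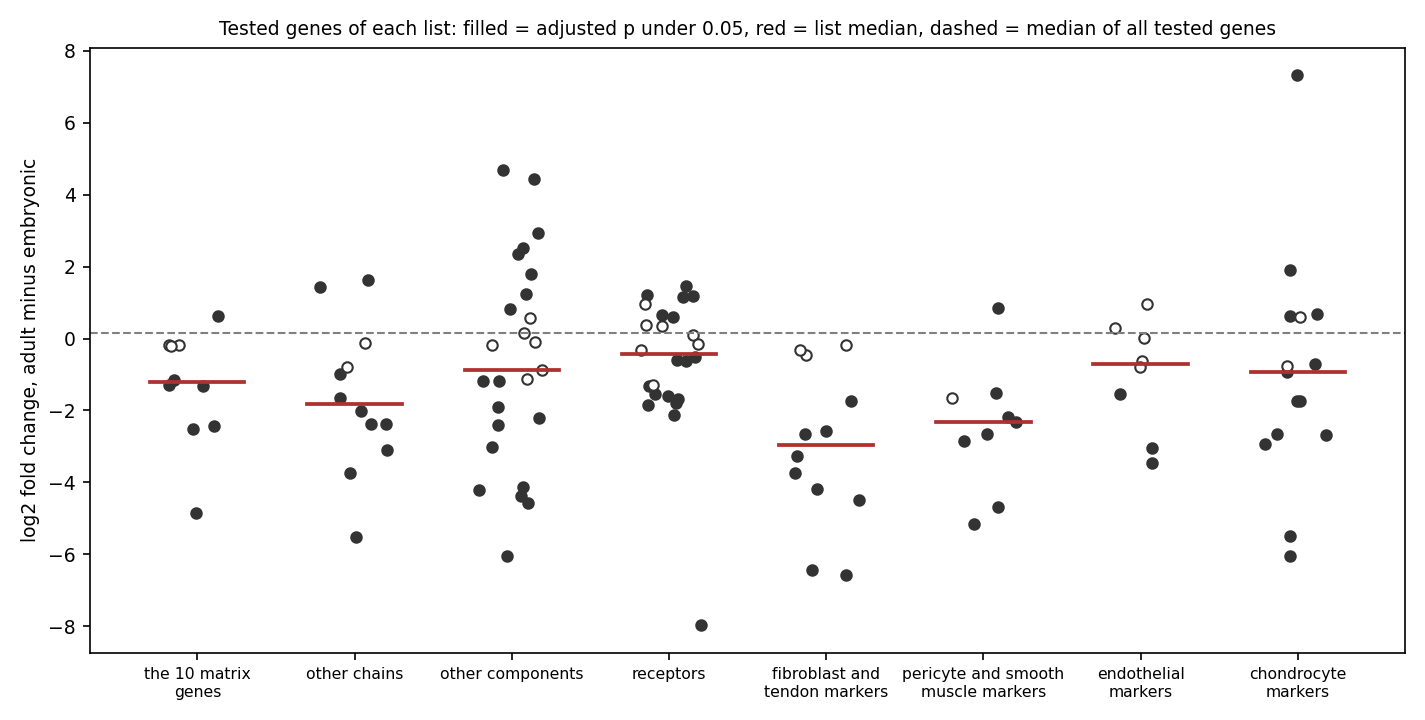
Difference of adult minus embryonic on the log2(TPM + 1) scale for the tested genes of the 4 matrix and receptor lists and 4 marker lists, with a point per gene (filled where called), a red line at each list's median and a dashed line at that of all tested genes. The medians are -1.22 for the 10 genes, -1.83 for the other chains, -0.88 for the other matrix proteins and -0.42 for the receptors, against 0.16 over all tested genes.

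Summed markers of other cell types also differed between the stages, and their part in the results above was not tested. The counts of called markers below stand beside 21.4% of all tested genes lower, 23.9% higher and 45.3% called in either direction. Of the tested markers 37.5% of the endothelial, 16.7% of the skeletal muscle and 33.3% each of the adipocyte and leukocyte genes were called, below that last share. The other marker lists were above it. The 12 fibroblast and tendon genes summed to 11963 to 13768 TPM in embryonic and 670 to 1427 TPM in adult samples, with 9 of 12 lower and none higher. Of these *Tnmd*, a tendon marker, was at 262, 108 and 162 against 0, 2.11 and 0.703 TPM, and *Scx*, the tendon transcription factor, at 44.2, 41.3 and 32.6 against 0, 4.59 and 0 TPM. Of genes named after their values were seen, *Mkx*, another tendon gene (24.1 to 41.5 against 14.6 to 44.6 TPM), *Pdgfra* and *Thy1* did not pass the test. Most of the embryonic sum was *Col1a1*, *Col3a1* and *Postn* (means of 5462, 4764 and 1594 against 470, 285 and 18.6 TPM), also named after their values were seen. The 12 pericyte and smooth muscle genes summed to 237 to 260 against 53.0 to 70.4 TPM, with 7 of 9 tested lower and 1 higher. The gene that rose, named after its values were seen, was *Pdgfrb* (26.6 to 29.0 against 38.6 to 57.2 TPM), most of the adult sum. Most of the embryonic sum was *Mcam* (100 to 112 against 0 to 6.30 TPM) and *Des* (46.0 to 50.6 against 0.739 to 1.11 TPM). Both fell and were also named after their values were seen. *Rgs5*, a pericyte marker, was at 22.8, 26.5 and 28.6 against 8.25, 5.65 and 2.38 TPM, and *Myh11*, of smooth muscle, was at most 1.05 TPM.

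The 14 endothelial genes summed to 134 to 162 TPM in embryonic and 67.2 to 89.7 TPM in adult samples, with 3 of 8 tested lower and none higher. The defining endothelial genes were low at both stages, with *Pecam1* at 1.48, 1.29 and 1.75 against 2.79, 6.87 and 2.86 TPM and *Cdh5* at 0.0507, 0 and 0.283 against 1.35, 2.36 and 0.0466 TPM. The genes that fell, named after their values were seen, were *Flt1* (15.2 to 22.7 against 0.257 to 2.04 TPM), *Tek* (9.21 to 19.0 against 0.121 to 0.889 TPM) and *Erg* (58.9 to 75.5 against 21.3 to 23.8 TPM). Most of the endothelial sum was *Erg* together with *Eng*, also named after its values were seen. *Eng* did not pass the test (32.1 to 39.2 against 34.1 to 59.9 TPM). The 12 skeletal muscle genes summed to 49.6 to 86.3 against 2.93 to 17.6 TPM, with 1 of 6 tested lower. *Ckm* was listed at 0 in all samples but adult sample 1 (5.95 TPM), and *Myod1* was at 8.57, 0.678 and 0.0562 against 1.38, 0.191 and 0 TPM. The muscle gene that fell, named after its values were seen, was *Tnni2* (23.9 to 65.2 against 0 to 0.761 TPM). The 8 adipocyte genes summed to 89.2 to 102 against 33.7 to 57.4 TPM, with 1 of 3 tested lower, *Adipoq* and *Lep* listed at 0 in every sample and *Plin1* at most 0.0935 TPM. Nearly all of that sum came from 3 genes named after their values were seen. *Pparg* fell (30.3 to 54.8 against 1.53 to 4.07 TPM). *Fabp4* (21.7 to 47.3 against 13.9 to 40.1 TPM) and *Lpl* (14.7 to 26.0 against 8.93 to 23.1 TPM) did not pass the test. The 8 Schwann cell genes summed to 91.6 to 128 against 48.0 to 98.4 TPM, with 2 of 5 tested lower and 1 higher, *Foxd3* listed at 0 in every sample and *Sox10* at most 2.83 TPM. Most of that sum came from the called genes, named after their values were seen. *Egr2* (57.2 to 63.6 against 10.1 to 20.8 TPM) and *Ngfr* (11.7 to 25.5 against 0.635 to 3.49 TPM) fell, and *S100b* rose (11.8 to 23.7 against 31.1 to 69.8 TPM).

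The 12 leukocyte genes summed to more in the adult, 6.15 to 14.7 against 21.6 to 107 TPM, with 2 of 6 tested higher, *Cd3e* listed at 0 in every sample and *Ptprc* at most 2.29 TPM. Named after their values were seen, the genes that rose were *Cd68*, at 4.22, 5.87 and 12.6 against 33.3, 17.2 and 27.5 TPM, and *Itgam*, at 0.399, 0.573 and 1.04 against 18.2, 1.37 and 12.1 TPM, whose call was lost without any single embryonic sample or adult sample 1 or 3 (limma adjusted p 0.063 to 0.102). *Lyz2* reached 30.7 TPM in adult sample 1 and did not pass the test. The 8 osteoblast genes summed to 2802 to 3469 against 754 to 1137 TPM, with 3 higher and 2 lower, and *Sp7* at most 3.26 TPM. Most of that sum was *Col1a2*, a collagen I chain that fibroblasts also make, and without it the sum went the other way, 65.4 to 92.5 against 303 to 461 TPM. The genes that rose, named after their values were seen, were *Ibsp* (0.148 to 29.6 against 235 to 316 TPM), *Bglap*, osteocalcin (listed at 0 in every embryonic sample, 15.8 to 83.9 TPM in adult samples), and *Alpl*, which encodes the phosphatase gated against (14.4 to 17.9 against 32.7 to 38.6 TPM). Most of the adult sum without *Col1a2* was *Ibsp*. The genes that fell were *Col1a2* and, also named after its values were seen, *Dmp1* (10.1 to 16.3 against 0.0611 to 3.51 TPM). *Runx2*, also named after its values were seen, was lower in every adult than in every embryonic sample. It did not pass the test (difference -0.72, limma adjusted p = 0.0659). The 15 chondrocyte genes, *Matn3* among them, summed to 28170 to 29812 TPM in embryonic and 35981 to 38397 TPM in adult samples, with 4 higher and 9 lower. The higher adult sum was *Prg4*, lubricin of the joint surface, at 123, 194 and 162 against 23818, 26392 and 25593 TPM. Without it, a sum added like that without *Col1a2* after seeing the data, the other 14 summed to 27976 to 29650 TPM in embryonic and 10388 to 13526 TPM in adult samples.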

How the data were processed

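The authors mapped single-end reads of 50 bases to mouse GRCm38 (mm10), ran RSEM on them, and deposited each gene's level as log2(TPM + 1). The RSEM version is not given in the sources used here. The methods describe cDNA made with a Nugen Ovation kit, which does not mark strand. Of the identifiers 21902 had a symbol in the GENCODE annotation of GRCm38 and 130 had none.

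Genes averaging 1 TPM or more across the 6 samples were tested with limma 3.58.1 in R 4.3.3 (eBayes with trend, stage as the only term) on the deposited log2 values, which hold a pseudocount of 1. Genes were called where the p, adjusted by Benjamini and Hochberg over all genes tested, was under 0.05. EBSeq, named in the methods, needs counts and was not used here. Ratios within a sample were compared by exact two-sided permutation. Transcripts were searched for near-identical copies with BLAST+ 2.17.0. The only match was *Nid2* with *Rtraf* over 437 bases, the length of their exon overlap on opposite strands, so no separate copy was found.

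The 10 genes, the other gene lists and the 9 marker lists were chosen with earlier results of these data known. Named beside the 10 were the other chains averaging 1 TPM or more, up to 4 genes with the largest rise and 4 with the largest fall among the called genes of each other list, and the defining markers. One chain and one marker among these are not reported here. *Agrn* and *Col18a1* were named as the comparison for *Hspg2*. Also named were markers listed at 0 in every sample and the genes marked above as named after their values were seen. Each sample was left out in turn. The other settings tried were a threshold of 0.01, a block for the replicate number, robust eBayes, eBayes without trend, a pseudocount of 0.1, filters of 0 and 5 TPM, and scaling by quantiles, by the median of ratios or without the 20 genes of highest level. Python 3.11.15, pandas 2.3.3, numpy 2.4.6, scipy 1.17.1 and matplotlib 3.10.9 were used.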

Additional observations from a re-analysis of the deposited data

How the results depend on the processing

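The calls of *Lamb1*, *Lama4*, *Lamc1*, *Nid2*, *Col4a1*, *Col4a2* and *Col6a3* kept their direction and stayed past the threshold under every one of the 16 alternatives. *Col6a1* and *Col6a2* turned to 0.13 and 0.16 with quantile normalization (limma adjusted p = 0.564 and 0.41). Leaving out each sample in turn gave *Col6a1* differences of -0.34 to -0.078, past the threshold without adult sample 2 (limma adjusted p = 0.0437), and 6 to 9 of the other chains called, with 6 left without embryonic sample 1. Over all genes the same fits called 4604 to 5617, fewest without embryonic sample 1, beside 5949 with all samples. At an adjusted p under 0.01 the called numbered 6 of the other chains and 3718 of all genes. These fits hold fewer samples or a stricter threshold, and the cause of the change with quantile normalization was not tested. The *Lama2* to *Lama4* difference of log2 ratios was -0.37 with a pseudocount of 0.1. With the replicate number as a block, 7 of the 10 genes, 9 of the other chains and 5430 of all genes were called, and *Lamc3* lost its call (limma adjusted p = 0.081). Deviations of same-numbered samples correlated between -0.0223 and -0.00884. Such correlations over all genes, from 3 samples a stage, cannot exclude a pairing that touches some genes, and the labels name none. With 3 samples a stage and no depth in TPM, the intervals of *Col6a1*, *Col6a2* and *Hspg2* include 0. They also reach down to -0.54, -0.51 and -0.53, so falls of that size are not excluded.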
